A study of Mus musculus with 4 samples.

Results

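The cortical excitatory neuron spots were 250 of 5901 tissue spots with at least 2000 UMIs on 4 Visium capture areas of the embryonic mouse head. A UMI (unique molecular identifier) stands for 1 captured probe molecule. Each spot was scored by the mean, over Neurod2, Neurod6 and Tbr1, of log2(1 + UMIs per 10000 UMIs of the spot), and the 250 spots with the highest score over all areas were taken. The spots were thus chosen by the measured levels of these 3 genes, and their levels are given only as a description. The lowest 5 scores inside the choice were 2.776 to 2.785, the next 5 outside it were 2.754 to 2.765, and the median of the other spots was 0.116. A UMI of all 3 genes was found in every one of these spots but 1, which lacked Tbr1.

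Sections came from wild-type C57BL/6J heads, formalin-fixed and embedded in paraffin, cut coronally at the level of the mid-palate at embryonic day (E) 14.5 or E15.5, and no animal carried a transgene or received a treatment. At each stage replicate 1 had a capture area to itself with 1 section, and replicates 2, 3 and 4 shared a second area with 3 sections. An area is 1 library, so each stage had 2 libraries, and values given 4 at a time follow the order E14.5 replicate 1, E14.5 replicates 2 to 4, E15.5 replicate 1, E15.5 replicates 2 to 4. A spot is a small disc of tissue that can hold several cells, spots of an area are not replicates, and p-values measure only the spread between the 4 areas. Levels are UMIs in each 1000000 UMIs (CPM) over the summed spots of an area. Genes were read by probes of unknown efficiency, so levels are compared between spots and never between genes.

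Excitatory neurons of the cerebral cortex use glutamate and arise from radial glia of the pallial ventricular zone, either directly or through EOMES-positive intermediate progenitors. Newborn neurons leave the ventricular side, pass the intermediate zone and settle in the cortical plate, where deep layers form before upper layers. NEUROD2 and NEUROD6 are basic helix-loop-helix factors that switch on as these neurons become postmitotic, and TBR1 is a T-box factor of early-born neurons in the subplate and deep layers. Cortical GABAergic interneurons have another origin, the ventral ganglionic eminences, and migrate into the cortex tangentially.

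The stretches before the start sites of the 3 genes are shown because these genes define the spots and because NEUROD factors bind E-boxes. They are the 250 bases before each annotated start, 5′ to 3′ on the gene's strand, from RefSeq (GRCm38.p6), and capitals mark the E-box spelling CAGATG or its reverse complement CATCTG. Neurod2 lies on the minus strand and its stretch is chr11:98329646-98329895. Neurod6, also on the minus strand, has chr6:55681264-55681513, and Tbr1, on the plus strand, has chr2:61804203-61804452.
Neurod2: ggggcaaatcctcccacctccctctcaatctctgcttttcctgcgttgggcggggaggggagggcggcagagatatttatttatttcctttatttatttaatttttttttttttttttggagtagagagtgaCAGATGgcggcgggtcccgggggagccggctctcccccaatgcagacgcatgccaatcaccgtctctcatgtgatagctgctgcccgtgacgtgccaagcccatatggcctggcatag
Neurod6: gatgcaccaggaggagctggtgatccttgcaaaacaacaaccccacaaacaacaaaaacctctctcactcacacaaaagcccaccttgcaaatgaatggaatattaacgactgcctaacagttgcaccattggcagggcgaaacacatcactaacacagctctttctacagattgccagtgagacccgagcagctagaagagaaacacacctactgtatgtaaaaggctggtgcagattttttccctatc
Tbr1: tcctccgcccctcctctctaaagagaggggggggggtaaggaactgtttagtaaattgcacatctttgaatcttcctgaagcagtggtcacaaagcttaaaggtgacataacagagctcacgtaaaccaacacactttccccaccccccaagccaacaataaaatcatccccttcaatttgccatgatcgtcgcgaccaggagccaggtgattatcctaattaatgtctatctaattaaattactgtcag
The Neurod2 stretch held 1 such E-box, with its first base at position -118 from the start site, and the other 2 stretches held none. In the GENCODE M21 annotation all 250 bases of the Tbr1 stretch lie in an exon of a non-coding processed transcript of Tbr1, 3 bases of the Neurod2 stretch lie in its first exon, and the Neurod6 stretch lies outside exons. Over windows of 250 bases before to 50 after the start, 17.2% of 32851 mouse promoters held the motif on either strand. A match is a spelling and says nothing of binding.

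The areas held 65, 70, 92 and 23 cortical spots of 859, 2104, 988 and 1950 spots. Their summed UMIs were 2749473, 3196906, 6844932 and 476445, with medians per spot of 36629, 45623, 67216.5 and 12135. The last area thus contributed the fewest and shallowest spots. The other spots of the areas had medians of 9796, 50162.5, 63662 and 45745 UMIs, so which kind of spot was deeper changed between areas. In E15.5 replicate 1 the spots formed an arc below the dorsal rim over both hemispheres and the midline, and in E14.5 replicate 1 an arc along 1 side of the section. Of the array neighbours of a cortical spot 65.9% were cortical spots too, and 13 spots had no such neighbour, 10 of them in the area of E14.5 replicates 2 to 4.

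**Figure D1:**
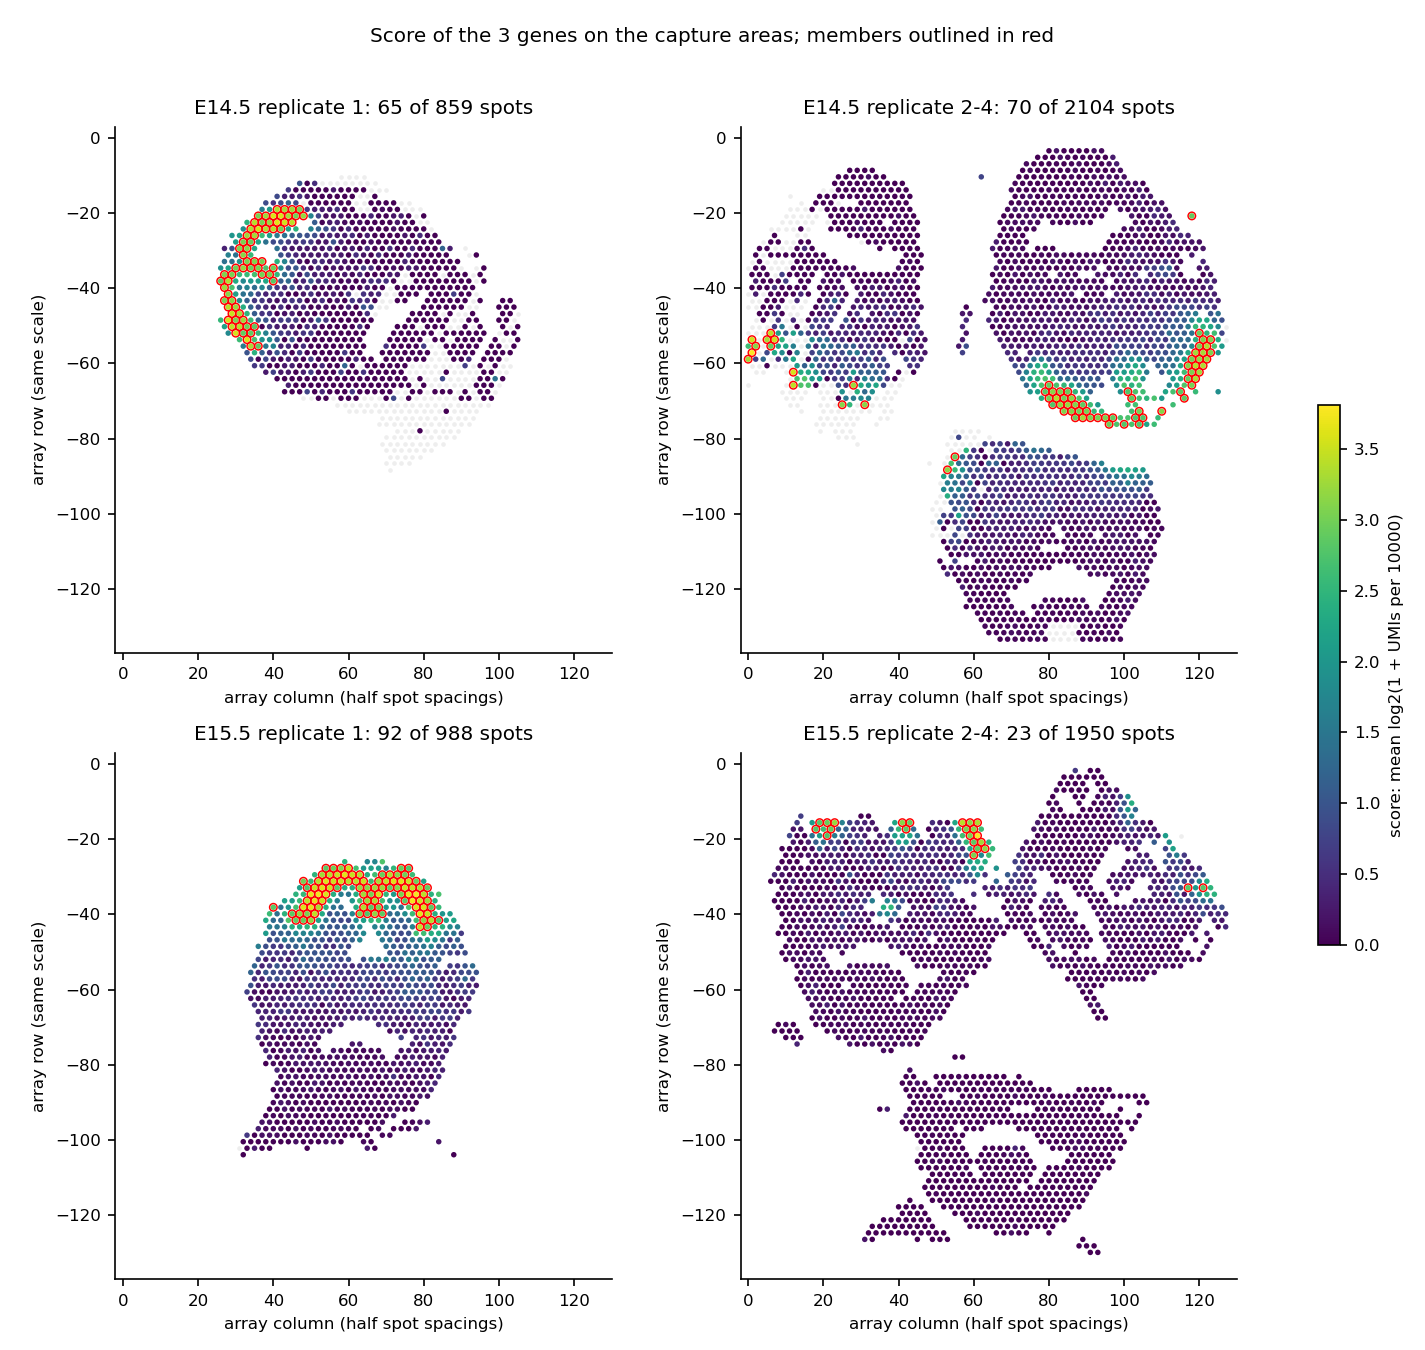
Maps of the 4 capture areas, with array column and row as axes, colour for the score of the 3 genes and red outlines for the 250 chosen spots, named member spots in the plots; pale grey spots had under 2000 UMIs. The chosen spots follow the rim of the sections, 92 of them in E15.5 replicate 1, and 21 of the 23 spots of E15.5 replicates 2 to 4 lie along the straight edge of 1 section.

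The areas with 3 sections were uneven. In the area of E14.5 replicates 2 to 4, 54 spots came from 1 section, 13 from a second, 2 from the third and 1 from a loose piece of tissue. The 13 spots of the second section had a median of 4312 UMIs and none reached 10000, and a UMI of Emx1, a homeobox gene of the dorsal telencephalon, was found in 3 of them. In the area of E15.5 replicates 2 to 4, 21 spots came from 1 section, 2 from another and 0 from the last, and the section with 21 of them ended in a straight edge where these spots lay. Stage is therefore compared between 2 well-filled replicate 1 areas and 2 areas that each rest mostly on 1 section. Between 540 and 1388 tissue barcodes were shared by any 2 areas, because barcodes name positions on the array.

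Before the results, differences between the libraries themselves are given. Choroid plexus genes summed to 2.91, 782, 2.05 and 2.1 CPM in cortical spots and 29.9, 2080, 41.6 and 245 in other spots. The high level belonged to the area of E14.5 replicates 2 to 4, where it was nearly all Ttr, the transthyretin gene, at 1.09, 749, 0.146 and 0 CPM over the areas. Retina and lens genes summed to 48, 310, 19 and 134 CPM, highest in the areas of replicates 2 to 4, and to 328, 2320, 1110 and 2340 in the other spots. Within the cortical spots 51 of 11297 tested genes (0.451%) differed between the areas of replicates 2 to 4 and those of replicate 1 at an adjusted p under 0.1 in edgeR's quasi-likelihood test with stage in the fit, of which 36 were higher and 15 lower in replicates 2 to 4. Lens crystallin genes led, with Cryga at 0, 115, 4.24 and 92.4 CPM. Rnd2, a small GTPase of radial migration, was lower in replicates 2 to 4 at 310, 98.8, 350 and 81.9 CPM. The part of these differences in the results below was not tested. Replicate number, Space Ranger version and the number of sections on an area cannot be told apart.

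Genes of cortical excitatory neurons that the score did not use were higher in the cortical spots than in the other spots of the same area in all 4 areas, so the name given to the spots holds by its markers. Slc17a7, the vesicular glutamate transporter VGLUT1, had 115, 196, 136 and 122 CPM in cortical spots and 16, 17.7, 14.3 and 6.54 in other spots. Emx1 had 136, 122, 159 and 88.2 CPM against 41.0, 18.9, 22.9 and 4.96. Bhlhe22, a basic helix-loop-helix factor of postmitotic cortical neurons, had 213, 231, 237 and 139 CPM against 25.7, 24.2, 19.4 and 7.3. For all 3 genes the lowest cortical level lay above the highest level of the other spots. Bcl11b, Fezf2, Sox5 and the second transporter gene Slc17a6 were also higher in 4 of 4 areas. The contrast follows from the choice of spots, has no test, and cannot tell fewer cells of a type from less RNA per cell. Beside the cortical spots it was smaller. Slc17a6 had 23.3, 10.9, 32.0 and 35.7 CPM in cortical spots and 33.1, 11.3, 26.0 and 35.4 at 1 array step from them. Slc17a7 had 57.6, 130, 69.7 and 135 CPM at 1 step, above the cortical level in the last area only. Bcl11b at 2 steps was above the cortical level only in E14.5 replicates 2 to 4, at 58.8 against 55.1 CPM. The score genes themselves had 2110, 1780, 2260 and 1730 CPM (Neurod2), 1270, 1210, 1380 and 846 (Neurod6) and 183, 151, 220 and 298 (Tbr1).

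**Figure D2:**
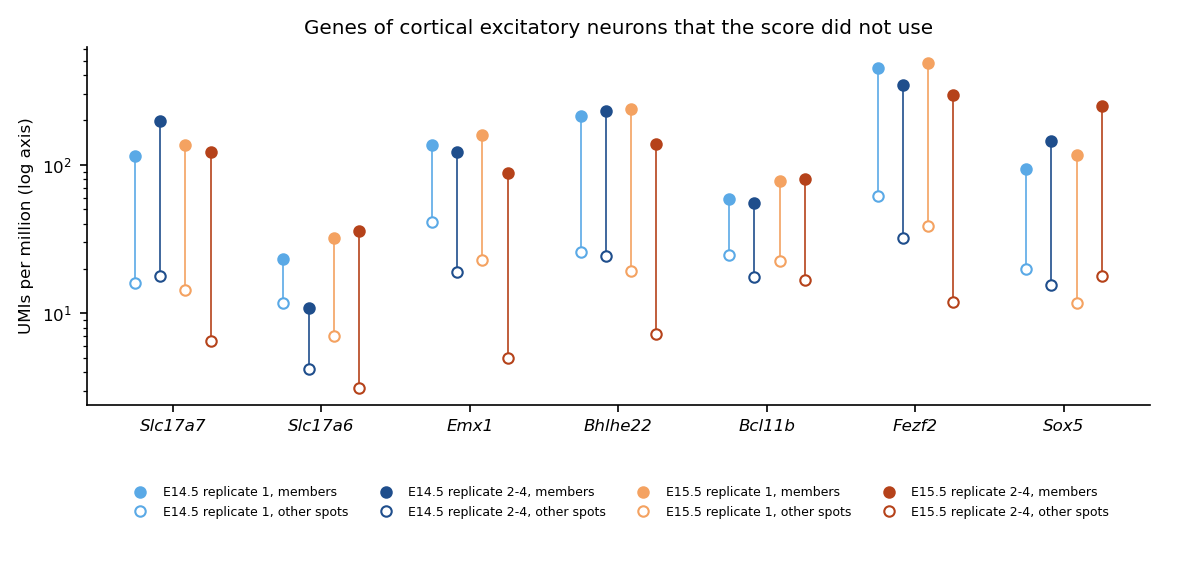
Level in CPM on a log axis of 7 genes the score did not use, with filled points for cortical spots and open points for the other spots of the same capture area. Every filled point lies above its open point, for Slc17a7 at 115 to 196 CPM against 6.54 to 17.7.

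Among genes with at least 100 UMIs over all spots, 24.4% were higher and 46.2% lower in cortical spots than in other spots in all 4 areas, and 3.75% were at least 2-fold higher in all 4, over 14623 genes. Those shares are the background for the counts below, and every such count is a description of the chosen spots.

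The 20 genes furthest above the other spots, ranked by the lowest of the 4 area ratios among 8461 genes with at least 200 UMIs in cortical spots, were Nos1, Abcc8, Gipr, Fam49a, Kcng1, Dync1i1, Kcnq3, Sla, Bhlhe22, Cnih3, Cntn2, Mpped1, Mc4r, Ppp1r1b, Fezf2, Slc17a7, Wnt7b, Ntng2, Prdm8 and Hs3st2. The lowest ratio was 6.6 for the last of them and 6.49 for the next gene outside. Nos1, the neuronal nitric oxide synthase, led with 46.2, 58.2, 65.0 and 54.6 CPM against 3.3, 5.28, 4.6 and 2.53. Mpped1, which encodes a metallophosphoesterase domain protein, had 1000, 1140, 1110 and 1020 CPM against 130, 94.4, 103 and 38.7. Both were nearly level over the areas inside the cortical spots, while the other spots varied more.

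The genes described next were grouped after their values were seen, with no count behind the groups. Some of the 20 encode proteins of excitability. Kcnq3, a subunit of the M-type potassium channel, had 233, 194, 292 and 183 CPM in cortical spots and 26.9, 18.6, 26.2 and 7.68 in other spots. Kcng1, a modifier subunit of voltage-gated potassium channels, had 125, 156, 147 and 101 CPM against 14.3, 14.9, 12.5 and 5.2. Abcc8, the sulfonylurea receptor of ATP-sensitive potassium channels, had 61.8, 51.0, 72.8 and 37.8 CPM against 5.64, 4.86, 6.71 and 2.97. Cnih3, an auxiliary subunit of AMPA receptors, also belonged here. Receptors for peptide hormones were a second group. Gipr, the receptor of the incretin GIP, had 131, 204, 179 and 120 CPM against 12.6, 13.9, 11.3 and 3.93, and Mc4r, a melanocortin receptor, had 61.1, 66.9, 61.5 and 77.7 CPM against 7.97, 2.84, 3.42 and 2.85. Others serve adhesion and signalling, and the 20 also held the factors Bhlhe22, Fezf2 and Prdm8, the transporter Slc17a7 and the dynein chain gene Dync1i1. Cntn2, the axonal adhesion protein TAG-1, had 724, 692, 753 and 546 CPM against 91.1, 62.9, 75.2 and 21. Wnt7b, a secreted WNT ligand, had 629, 1130, 490 and 751 CPM against 80.1, 89.0, 71.0 and 62.7. Of the 20 genes 10 had a RefSeq promoter entry, and 3 of their 11 promoters (27.3%) held the E-box spelling, those of Nos1, Ntng2 and Prdm8, beside 17.2% of all promoters.

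Factors of pallial identity were higher in 4 of 4 areas for 13 of 19 measured genes. Nfib, a nuclear factor I gene of cortical neurons and glia, had 2430, 1610, 2520 and 1420 CPM against 584, 438, 502 and 442. Of the deep layer and corticofugal genes 7 of 10 were higher in 4 of 4 areas, a list that includes the score gene Tbr1. Fezf2, which specifies subcerebral projection neurons, had 450, 344, 483 and 296 CPM against 62.1, 32.1, 38.9 and 11.9. In the GABAergic spots described below Fezf2 had 22.5, 27.9, 55.1 and 23.7 CPM. Tle4, also among the 7, was higher in GABAergic than in cortical spots in all 4 areas, at 287, 230, 264 and 185 CPM against 189, 213, 173 and 162. Crym was lower in all 4 areas, and Foxp2 and Nrp1 differed in direction between areas.

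Of the upper layer and callosal genes 7 of 10 were higher as well. Pou3f3, a POU factor of upper layer neurons, had 1000, 1040, 1190 and 791 CPM against 428, 320, 286 and 148. Cux1, a cut-like homeobox gene, was closer to the other spots, at 351, 484, 372 and 258 CPM against 297, 329, 263 and 181. Neither gene was particular to cortical spots. Pou3f3 had 749, 932, 1030 and 592 CPM in GABAergic spots and 1320, 887, 1680 and 1030 in the forebrain radial glia spots used below. Cux1 was higher in GABAergic than in cortical spots in all 4 areas, at 396, 578, 462 and 375 CPM. Subplate genes were mixed, with 3 higher and 3 lower of 7. Nxph4, a secreted ligand of neurexins, had 69.1, 78.5, 88.7 and 50.4 CPM against 18.2, 22.7, 15 and 9.28. Cplx3, a complexin of mature subplate cells, had no UMI in 13267756 UMIs of cortical spots, which allows up to 0.226 CPM and covers counting error only. Of the Cajal-Retzius cell genes 1 of 8 was higher in 4 of 4 areas. That gene was Reln, the extracellular signal of these cells, with 211, 186, 233 and 334 CPM against 127, 121, 84.6 and 86.4. Reln had 221, 300, 174 and 440 CPM at 1 array step from the cortical spots, above the cortical level except in E15.5 replicate 1.

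Genes of neuronal machinery were mostly higher in the cortical spots than in the other spots, which include muscle, bone and skin, and less apart from the GABAergic spots (the 250 with the highest score of Gad1, Gad2 and Dlx5). Of 16 neuronal cytoskeleton and growth cone genes 14 were higher in 4 of 4 areas, with summed levels of 25200, 27200, 26800 and 32000 CPM against 12400, 11900, 9370 and 6500, while GABAergic spots had 23100, 25700, 25600 and 27800. Stmn2, a microtubule regulator of growing axons, had 2600, 2910, 2550 and 3560 CPM against 1150, 1130, 728 and 541, and 2310, 2790, 2730 and 3150 in GABAergic spots. The neurofilament gene Nefl was lower in all 4 areas. Of 19 presynaptic and vesicle genes 17 were higher, and none was lower in all 4. Snap25, a SNARE protein of vesicle fusion, had 150, 121, 169 and 214 CPM against 65.6, 43.1, 53.2 and 28.7.

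On the receiving side, 11 of 12 postsynaptic scaffold genes, 11 of 18 glutamate receptor genes, 8 of 12 GABA receptor genes and 12 of 15 genes of voltage-gated channels and chloride transport were higher in 4 of 4 areas. Grin2b, the NMDA receptor subunit of immature neurons, had 357, 374, 396 and 479 CPM against 114, 92.8, 64.7 and 39.2. Gria2, an AMPA receptor subunit, had 262, 219, 295 and 483 CPM against 64.7, 35.1, 40.5 and 27.8. Camk2b, a calcium-dependent kinase of dendritic spines, had 255, 374, 239 and 405 CPM against 82.3, 101, 61.7 and 42.9. Grin2a and Grin2d, NMDA receptor subunits, were lower in all 4 areas at 0 to 4.2 CPM. Summed glutamate receptor genes had 1390, 1450, 1480 and 2020 CPM in cortical spots and 1040, 1040, 1050 and 1280 in GABAergic spots. Summed GABA receptor genes had 1070, 1050, 1080 and 1210 CPM and 1120, 1160, 1170 and 1040, so the order of the 2 kinds of spot changed between areas. Grik3, a kainate receptor subunit, was higher in GABAergic spots in all 4 areas, at 271, 287, 294 and 280 CPM against 188, 257, 183 and 208.

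For axon guidance and adhesion 15 of 24 genes were higher and 6 lower in 4 of 4 areas. Plxna4, a semaphorin receptor subunit, had 640, 651, 804 and 630 CPM against 98.6, 94.5, 102 and 40.5. Robo1, a receptor for Slit proteins, had 605, 643, 726 and 497 CPM against 243, 344, 266 and 195, and the ligand genes Slit2 and Slit3 were lower in all 4. In the migration and Reelin pathway 8 of 12 genes were higher. Dcx, the microtubule protein of migrating neurons, had 1090, 641, 918 and 1330 CPM against 409, 184, 221 and 185, and Dab1, the adaptor that carries the Reelin signal into the cell, had 287, 338, 273 and 264 CPM against 60.7, 45.5, 34.7 and 27.6.

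Most radial glia genes and the 15 cell cycle genes counted were lower than in the other spots, and intermediate progenitor genes were divided. Of 12 radial glia genes 10 were lower in all 4 areas and 1, Ptprz1, was higher. Vim, an intermediate filament of radial glia and mesenchyme, had 347, 540, 444 and 252 CPM against 926, 1140, 1340 and 1320. All 15 cell cycle genes with 100 UMIs were lower in all 4 areas, with summed levels of 981, 976, 934 and 544 CPM against 2550, 1900, 2330 and 2030. Of the intermediate progenitor genes 5 of 10 were higher and 4 lower. Insm1, a zinc finger factor of newly committed neural cells, had 396, 387, 528 and 185 CPM against 269, 158, 202 and 51.7. It was not particular to cortical spots, with 396, 445, 621 and 305 CPM in GABAergic spots. Forebrain radial glia spots had 887, 521, 1220 and 597 CPM of Insm1. Hes6, a modulator of Notch signalling, differed in direction between areas at 280, 249, 246 and 191 CPM against 359, 283, 297 and 189.

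Markers of other cell types show what else the spots held. GABAergic lineage genes summed to 570, 837, 530 and 867 CPM in cortical spots, 1290, 1380, 886 and 717 in other spots, and 3980, 5390, 3790 and 3760 in GABAergic spots. Of these 18 genes 10 were lower in all 4 areas and 2 higher, namely Sst and Npy, neuropeptides of interneurons. Sst had 91.7, 87.6, 141 and 267 CPM against 76.8, 78.1, 79.4 and 30.5. Meningeal and mesenchymal genes summed to 4420, 7720, 4240 and 3920 CPM, where the other spots had 21100, 27900, 27000 and 38200. Globin and other erythroid genes summed to 2770, 4550, 3700 and 1690 CPM. Of 9 microglia genes 8, of 8 endothelial genes 6, and all of the 6 muscle, 6 surface epithelium and 8 bone and cartilage genes were lower in all 4 areas.

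Hippocampal and cortical hem genes summed to 36.2 to 62.9 CPM in cortical spots and olfactory epithelium genes to 45.7 to 61.8 CPM, and oligodendrocyte lineage genes to 50.1 to 75.6 CPM. Tbx21 of the olfactory bulb, Otx2 of the choroid plexus and Cnga2 of olfactory sensory neurons had no UMI in cortical spots. Otx2 had under 100 UMIs over all spots, so its absence says little of cortical spots. Stress and immediate early genes were lower in all 4 areas for 6 of 9 genes, and Egr1 had no UMI.

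The depth of a cortical spot from the ventricular side was read as the number of array steps to the nearest forebrain spot of a radial glia score (Pax6, Sox2 and Hes5). This axis was chosen after the data had been seen and could be drawn in the replicate 1 areas. Of the 250 spots with the highest radial glia score 194 were set apart as retina by marker genes, and the remaining 56 were used. At 1, 2, 3 and 4 or more steps lay 11, 23, 18 and 13 cortical spots at E14.5 and 16, 23, 24 and 29 at E15.5. The last group reached 6 steps at E14.5 and 9 at E15.5. Steps count distance in any direction, and how far they follow distance from the ventricular side rather than along the cortex was not tested. Of 5944 genes with 100 UMIs in each area, 257 (4.32%) rose outward with a Spearman rho over 0.3 in both areas and 419 (7.05%) fell with a rho under -0.3. Spots of an area share a library, so rho is a description without a test. Median UMIs per spot also went down with the steps, from 56785 to 27437 in the E14.5 area and from 90697 to 49823 in the E15.5 area, and the part of depth was not tested.

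**Figure D3:**
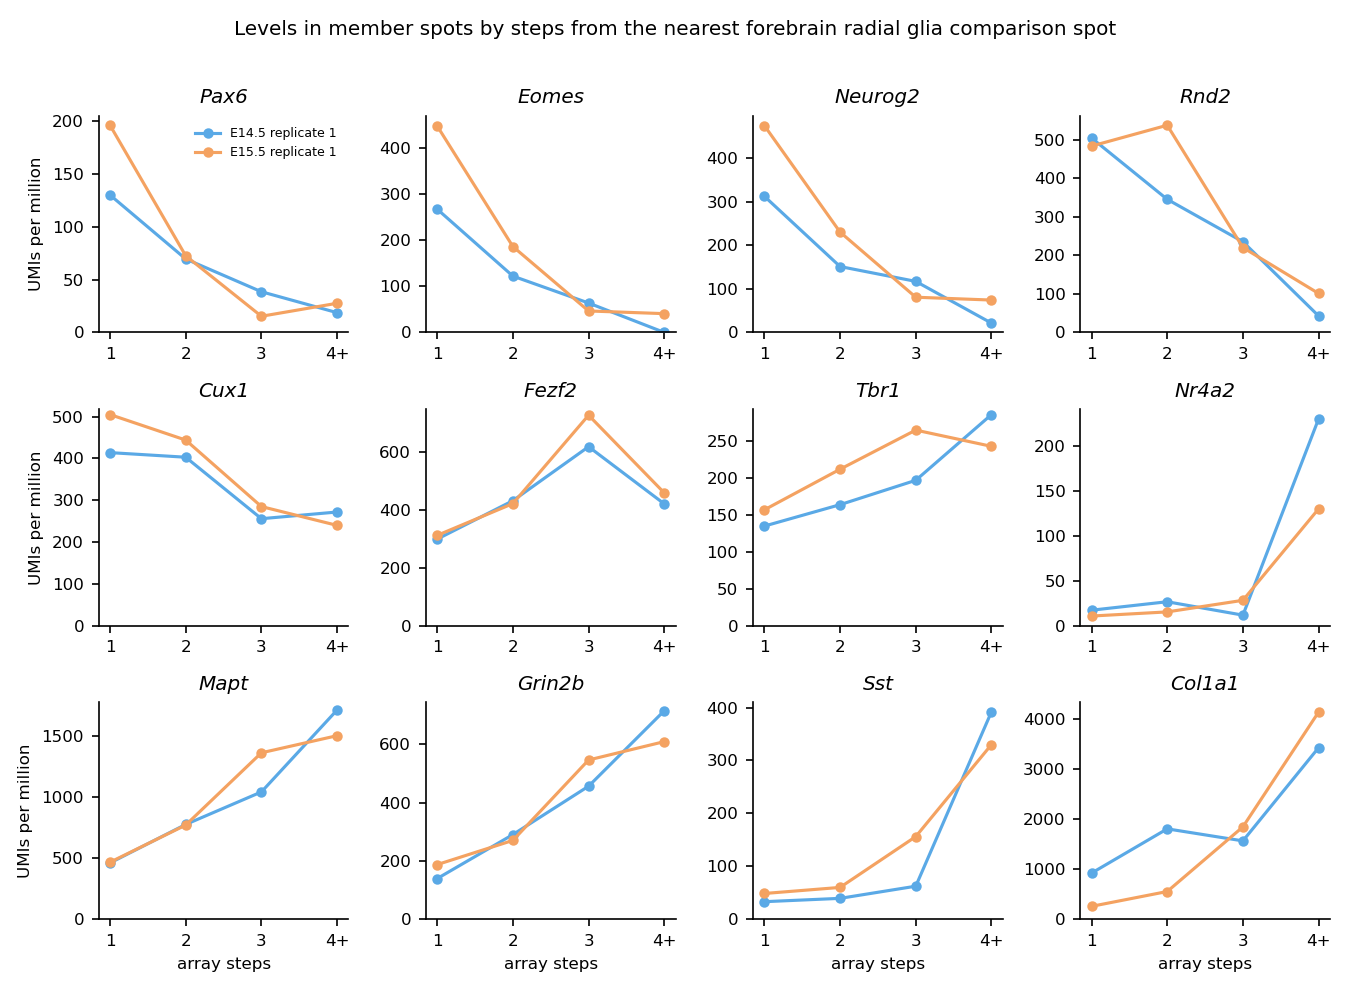
Level in CPM of 12 genes in cortical spots of the replicate 1 areas against array steps from the nearest forebrain radial glia spot, with blue for E14.5 and orange for E15.5; a point sums the 11 to 29 spots at that step. Pax6, Eomes, Neurog2 and Rnd2 are highest near the radial glia spots, Fezf2 peaks at step 3, and Nr4a2 and Sst are highest at step 4 and beyond.

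Progenitor genes were highest near the radial glia spots, which the axis partly fixed, since those spots were picked for Pax6, Sox2 and Hes5. Eomes, the factor of intermediate progenitors, had 267, 122, 63.7 and 0 CPM over the 4 steps at E14.5 and 447, 186, 46.5 and 40.7 at E15.5. Neurog2, the proneural factor of the pallium, had 312, 151, 117 and 21.4 CPM in the younger area and 474, 230, 80.7 and 74.2 in the older. Pax6, a homeobox factor of radial glia and part of the score that set the axis, went from 130 to 18.7 and from 196 to 27.6 CPM. In all, 8 of 9 intermediate progenitor genes, 5 of 8 radial glia genes, Pax6 included, and 4 of 8 cell cycle genes fell outward in both areas, and none of these rose. Vim did not fall at E15.5, with 514, 330, 359 and 631 CPM. Rnd2 had 504, 345, 235 and 42.7 CPM and 483, 537, 220 and 101.

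Some neuronal genes rose outward, most often those of the cytoskeleton list. Mapt, the microtubule protein tau, had 459, 774, 1040 and 1710 CPM at E14.5 and 465, 769, 1360 and 1500 at E15.5. Grin2b had 139, 290, 456 and 715 CPM and 187, 270, 546 and 609. Tubb2b, a beta tubulin, went from 1200 to 2620 CPM and from 1250 to 2430. Of the cytoskeleton genes 9 of 13 rose outward and 1 fell, of the presynaptic genes 5 of 14 rose and 0 fell, and of the glutamate receptor genes 2 of 6 rose and 0 fell. Fewer moved in the other neuronal lists, with 2 of 10 postsynaptic and 2 of 9 channel genes rising, 4 rising and 3 falling of 20 axon guidance genes, and 1 each of 11 migration genes.

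Layer genes did not share an order. Tbr1 rose outward, with 135, 164, 197 and 286 CPM at E14.5 and 157, 212, 265 and 243 at E15.5, although it was part of the score of the spots. Fezf2 was highest at step 3 in both areas, with 300, 433, 620 and 422 CPM and 313, 423, 729 and 460. Nr4a2, a nuclear receptor of the subplate, stayed at 10.8 to 28.3 CPM over the first 3 steps of both areas. At step 4 and beyond its summed level stood at 230 and 130 CPM. Its rho over the spots was 0.18 and 0.33, so it was not among the genes that rose outward in both areas. Nxph4, the other subplate gene with enough UMIs, had the opposite order, with 78, 72.2, 81.4 and 24 CPM and 121, 107, 88.4 and 31.5. Of the upper layer genes 4 of 7, namely Cux1, Pou3f2, Pou3f3 and Unc5d, fell outward and Plxnd1 rose. Cux1 had 414, 403, 256 and 272 CPM and 505, 444, 285 and 240. Neurod2 was nearly level, at 1850 to 2610 CPM over all steps of both areas.

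Sst rose outward with 32.9, 39.2, 62.2 and 392 CPM at E14.5 and 48.4, 59.9, 156 and 330 at E15.5. Col1a1, the collagen of meninges and other connective tissue, rose from 917 to 3420 CPM and from 254 to 4130. Of 6 meningeal and mesenchymal genes 3 rose outward and 1 fell, Zic1, from 548 to 77.4 CPM and from 597 to 126. With the 120 forebrain spots of highest radial glia score as another axis, 199 of the 257 rising and 348 of the 419 falling genes kept their class.

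Around the cortical spots the levels followed the rings of the array, counted in steps from the nearest cortical spot. Intermediate progenitor genes were highest in the first ring in all 4 areas, with 1810 CPM in cortical spots and 2560, 2300, 1550 and 888 CPM at 1, 2, 3 and 4 or more steps in E14.5 replicate 1. In E15.5 replicate 1 the same sums were 1910, 2600, 2150, 1540 and 762 CPM. Radial glia genes peaked 2 steps out in the replicate 1 areas, at 3770 and 3480 CPM, and had no such peak in the other 2 areas. GABAergic lineage genes peaked 3 steps out in 3 areas, at 2510, 2410 and 2430 CPM, and in E15.5 replicates 2 to 4 held 1970, 1880 and 1940 CPM over the first 3 rings. Deep layer genes fell with every ring, from 1370, 1190, 1450 and 1330 CPM in cortical spots to 367, 353, 338 and 268 at 4 or more steps. In the replicate 1 areas the order from the cortical spots was thus intermediate progenitor genes, radial glia genes, then GABAergic lineage genes.

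**Figure D4:**
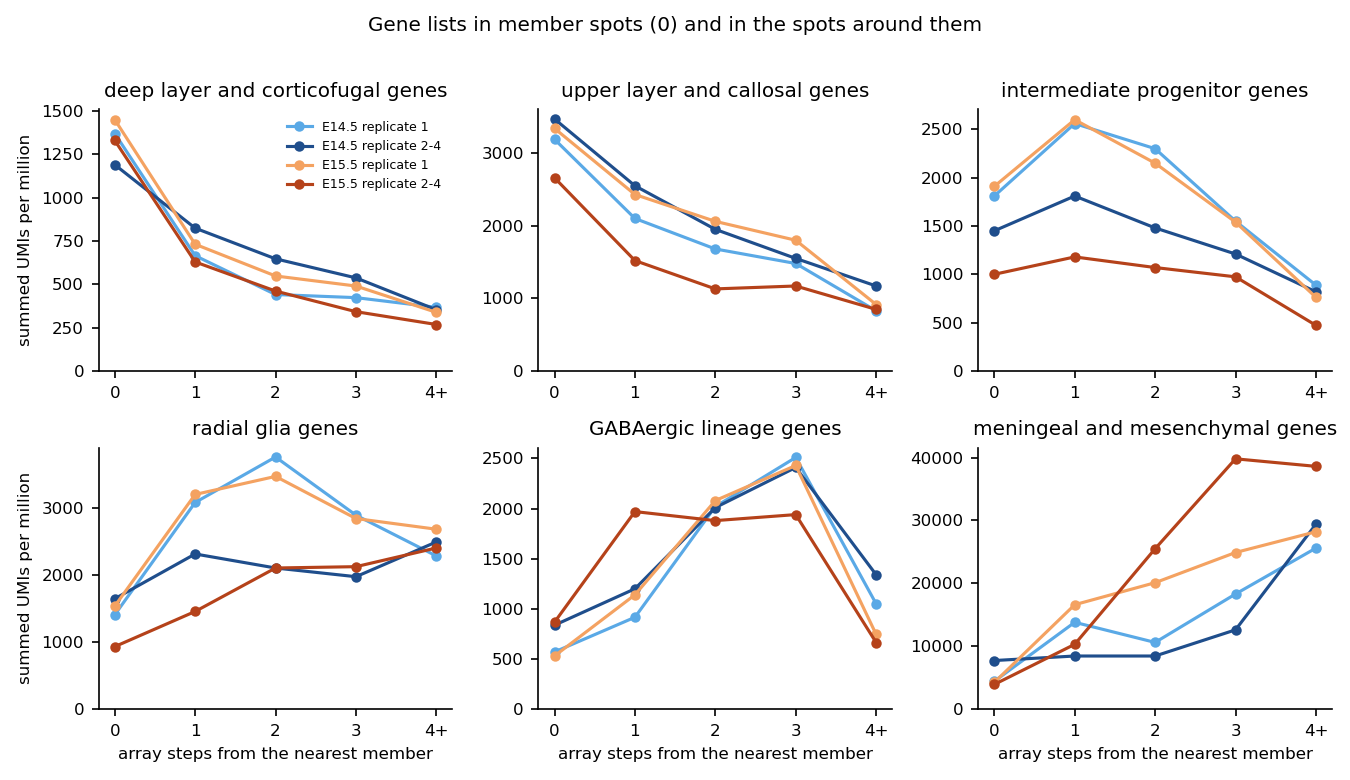
Summed level in CPM of 6 gene lists in cortical spots (0) and in other spots by array steps from the nearest cortical spot, 1 line for each capture area. Deep and upper layer genes fall from the cortical spots, intermediate progenitor genes peak at 1 step, and GABAergic lineage genes peak at 3 steps in 3 of the 4 areas.

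The comparison of stages asked whether the cortical spots differed between E14.5 and E15.5, on sums of 2 areas each. No gene of 11297 passed an adjusted p under 0.1 in edgeR's quasi-likelihood test (0%), 178 had an unadjusted p under 0.05 (1.58%), and DESeq2 called 1 gene, Fgf15. Without E14.5 replicate 1 edgeR called 3 genes, without E14.5 replicates 2 to 4 it called 4, without E15.5 replicates 2 to 4 it called 4, and without E15.5 replicate 1 it called 0. With each section as a sample 8 genes passed, which treats sections of 1 library as independent. The areas of the 2 stages did not overlap for 1579 genes higher at E15.5 (14%) and 1444 genes lower (12.8%), and the median difference of all genes was -0.02 on the log2 scale.

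Fgf15, a secreted fibroblast growth factor of neural progenitors on chromosome 7 at 144896531 to 144900953 (GRCm38), had the smallest p. It had 199, 139, 44 and 6 UMIs, or 72.4, 43.5, 6.43 and 12.6 CPM. Both E14.5 areas lay above both E15.5 areas, with a log2 difference of -2.93 (SE 0.445, adjusted p = 0.443 in edgeR). With the replicate number in the fit as a replicate block, which also marks software version and area layout, its adjusted p was 0.0309 in edgeR.

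The 10 genes with the smallest p among those higher at E15.5 were Sst, Camk2n1, Ptprt, Prdm8, Gnao1, Tom1l2, Efnb2, Islr2, Btbd3 and Ndst4, none past the threshold. Sst, at 91.7, 87.6, 141 and 267 CPM, had a log2 difference of 1.12 (SE 0.311, adjusted p = 1 in edgeR). Camk2n1, an inhibitor of calcium-dependent kinase II, had 80.7, 49.1, 114 and 139 CPM. Prdm8, a zinc finger factor of the PRDM family and among the 20 genes furthest above the other spots, had 181, 138, 243 and 296 CPM. Efnb2, an ephrin ligand, had 132, 147, 183 and 317 CPM. The E15.5 values were the higher ones in both areas for each of the 10 genes, which their choice by p in these same areas largely fixed. The area with 23 spots was the highest in all of them.

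Among the 10 with the smallest p of those lower at E15.5 were Fgf15, Rax, Atoh7, Six6, Matn1, Tnnt3, Pmel, Cnmd and Krt17. Rax, Atoh7 and Six6 encode factors of the retina. Rax had 12.7, 7.19, 0.292 and 0 CPM from 35, 23, 2 and 0 UMIs, where 0 UMIs allow up to 6.3 CPM in the last area. Atoh7, which retinal ganglion cells need, had 18.2, 13.1, 0.73 and 4.2 CPM. Matn1 and Cnmd are cartilage genes whose differences turned positive with 400 spots (0.93 and 0.94) and with 50 spots in each area (0.65 and 0.78). Tnnt3 is a muscle troponin, Pmel a pigment cell gene and Krt17 an epithelial keratin, so the genes with the smallest p were mostly of tissues outside the cortex. Those other than Fgf15 were at 21.5 CPM or less in every area, and their source in these spots was not tested.

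**Figure D5:**
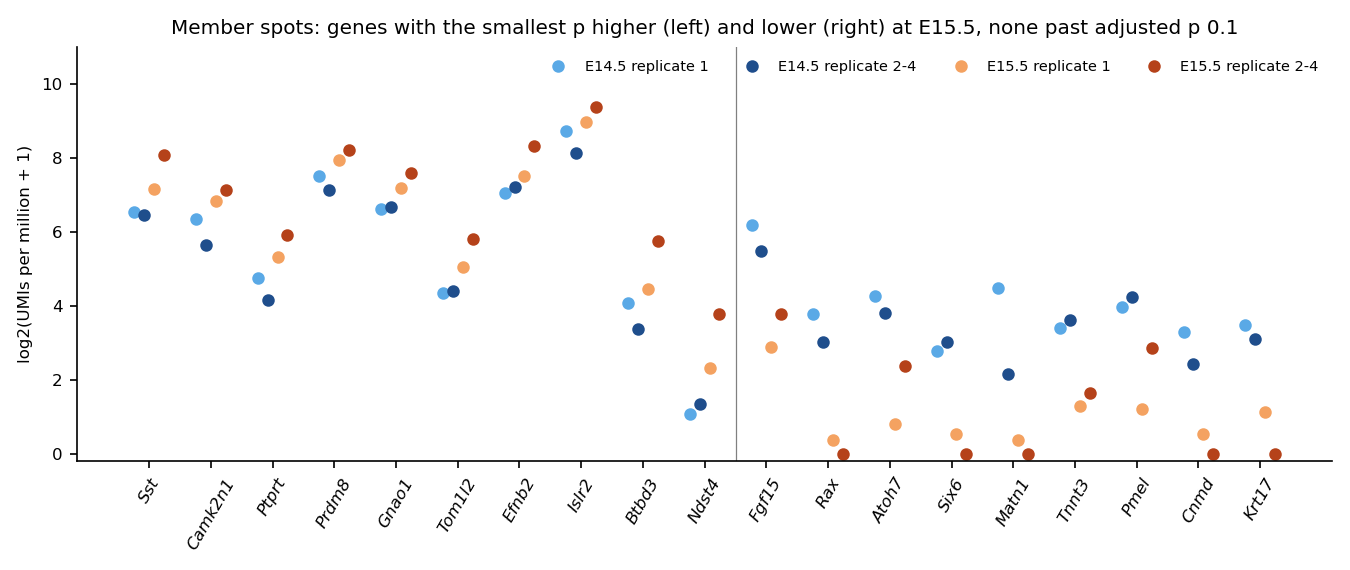
Level of 10 genes higher and 9 lower at E15.5, from the 10 with the smallest p in each direction, in the cortical spots of the 4 capture areas, as log2(CPM + 1). The stages do not overlap for any of these genes, which their choice by p largely fixed, and none passed an adjusted p under 0.1. The genes lower at E15.5 had at most 12.6 CPM in the E15.5 areas.

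Of the lists of neuronal functions, the 4 with the most genes higher at E15.5 without overlap are given first. Of 19 presynaptic and vesicle genes 7 were higher at E15.5 in both areas and 0 lower, beside 14% of all genes, with a median log2 difference of 0.28. Slc17a6, the transporter VGLUT2, had 23.3, 10.9, 32.0 and 35.7 CPM and Snap25, at the values above, was likewise higher in both E15.5 areas. Of 15 glutamate receptor genes 6 were higher and 0 lower, with a median of 0.30, among them Gria2 at 262, 219, 295 and 483 CPM and Grin1, the obligatory NMDA receptor subunit, at 35.3, 39.4, 45.7 and 81.9. Of 16 cytoskeleton genes 5 were higher and 0 lower, with a median of 0.11. Map1b, a microtubule protein of growing axons, had 374, 306, 415 and 638 CPM. Of 15 channel and chloride transporter genes 5 were higher and 1 lower, with a median of 0.21. None of these genes passed the adjusted threshold, and in many of them the shallow area of E15.5 replicates 2 to 4 was the highest. Of 12 migration and Reelin pathway genes 3 were higher and 1 lower. For 12 postsynaptic scaffold and 10 GABA receptor genes the counts were 1 higher and 0 lower in each list. Of 24 axon guidance and adhesion genes 2 were higher and 4 lower, beside 14% and 12.8% of all genes.

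Layer lists showed little difference by stage. Deep layer genes had a median of -0.02 and upper layer genes of -0.03. Bcl11b, a zinc finger factor of subcerebral neurons, had 58.6, 55.1, 78.3 and 79.8 CPM and Tle4, a corepressor of corticothalamic neurons, had 189, 213, 173 and 162. Beside the counts that follow, 14% of all genes were higher and 12.8% lower without overlap. Among intermediate progenitor genes 0 were higher and 4 of 10 lower, and among radial glia genes the stages overlapped for all 12. Of the GABAergic lineage genes 6 of 18 were lower and 2 higher, with a median of -0.48. Isl1, a LIM factor of striatal and other ventral neurons, had 9.46, 19.4, 1.75 and 6.3 CPM, and Nkx2-1 of the medial ganglionic eminence had 5.09, 18.5, 1.61 and 2.1. The retina and lens list had a median of -3.86 with 4 of 6 genes lower, and skeletal muscle genes one of -1.90.

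Whether a stage difference was particular to the cortical spots was tested by the interaction of stage and region with the capture area as a block. Against all other spots 49 of 13895 genes (0.353%) had a higher and 137 (0.986%) a lower log2 stage difference in cortical spots at an adjusted p under 0.1 in edgeR. Without TMM scaling the split was 0 higher and 31 lower, and with DESeq2 34 and 71. The count was 222 without E14.5 replicate 1, 300 without E14.5 replicates 2 to 4, 1270 without E15.5 replicate 1 and 317 without E15.5 replicates 2 to 4.

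The 5 genes with the smallest p among those called higher had lower levels at E15.5 in the other spots and no such drop in cortical spots. Glra2, a glycine receptor subunit, had 105, 77.3, 106 and 181 CPM in cortical spots and 24.9, 23.2, 11.7 and 9.63 in other spots, a difference of differences of 1.69 (SE 0.284, adjusted p = 0.0124 in edgeR). Draxin, a secreted guidance protein of commissural axons, had 505, 392, 497 and 369 CPM against 146, 108, 76 and 34.2. Lmo3, Phactr3 and Mapk10 completed the first 5, with differences of 1.60, 1.25 and 1.22. By list, 3 axon guidance genes (Nrcam, Dcc and Slit1), 2 presynaptic genes (Nrxn2 and Syp), Grin2b, Reln, Elavl2 and Lmo3 were called higher. Cytoskeleton genes summed to 12400, 11900, 9370 and 6500 CPM in the other spots, lower at E15.5 in both areas, and the part of this in the calls was not tested.

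The 5 genes with the smallest p among those called lower were of epidermis, muscle and retina. Krt10, a keratin of differentiating epidermis, had 44.4, 112, 37.5 and 46.2 CPM in cortical spots and 82.5, 158, 345 and 305 in other spots, a difference of -2.38 (SE 0.259, adjusted p = 0.00165 in edgeR). Des, the muscle filament desmin, had 12.4, 15.6, 3.94 and 6.3 CPM against 129, 195, 351 and 296. Acta2, Krt15 and Rax completed the first 5, with differences of -2.76, -2.20 and -5.04. All 6 skeletal muscle genes, 4 of 6 surface epithelium genes and 6 of 7 retina and lens genes were called lower. The 137 genes had a median of 73 UMIs in cortical spots, the 49 genes called higher one of 2699, and 32 of the 137 had at most 3 UMIs in the E15.5 cortical spots.

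The 250 GABAergic spots lay on the same capture areas, 41, 110, 31 and 68 of them. Their split over sections was not counted. Against them 1 gene had a higher (0.00881%) and 1 a lower (0.00881%) stage difference in cortical spots, of 11346 tested. Fgf15 had 353, 167, 285 and 278 CPM in GABAergic spots, where the stages overlapped, and fell in the cortical spots relative to them by 3.20 on the log2 scale (SE 0.278, adjusted p = 3.12e-05 in edgeR). Sulf1, a sulfatase that trims heparan sulfate, had 26.9, 65.1, 20.9 and 52.5 CPM in cortical spots and 22.5, 70.9, 3.21 and 5.91 in GABAergic spots, a difference of 2.93 (SE 0.416, adjusted p = 0.0135 in edgeR). Without E14.5 replicates 2 to 4 its difference was 2.63 and its call was lost (adjusted p = 0.146 in edgeR). It held its level in cortical spots and was lower at E15.5 in the GABAergic ones, on 6 and 11 UMIs there. Npy, Lhx6, Sst and Prickle2 came next among the higher and Aldh1a3, Six3, Tiam2 and Isl1 among the lower genes, none past the threshold. The count was 7 without E14.5 replicate 1, 3 without E14.5 replicates 2 to 4, 34 without E15.5 replicate 1 and 8 without E15.5 replicates 2 to 4.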

How the data were processed

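The authors deposited raw UMI counts for 19465 genes per spot of 4 capture areas, with spot positions, made with Space Ranger 1.3.1 (replicate 1 areas) and 2.0.0 (the others) per the file headers and without normalization. Their processing notes name mm10. The probe set is not given in the sources used here. Tissue spots (6357) were kept from 2000 UMIs upward, which left out 456. By area 859 of 1106, 2104 of 2310, 988 of 989 and 1950 of 1952 were kept. Nearly all spots left out were thus at E14.5, and the part of this in the stage results was not tested. Doublets were not called, because spots are not single cells. Counts were summed over the chosen spots of each area and tested with edgeR 4.0.16 (R 4.3.3, quasi-likelihood test, TMM, default filter on low counts), with Benjamini-Hochberg adjustment over all genes tested and a threshold of 0.1 for a test against no change. The code was tested on simulated data. DESeq2 1.42.0 and other settings served as alternatives. The spots, the gene lists and the comparisons were chosen with earlier results of these data known. Genes sharing a symbol (22) were handled by identifier.

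The genes named were the 10 with the smallest p in each direction by stage, 5 in each direction for each interaction, the 20 with the highest lowest-area ratio of cortical to other spots, and from each list up to 4 genes with the most UMIs. Others, and the lists' examples that are not among those 4, were chosen after their values were seen. Comparison spots were the 250 with the highest Gad1, Gad2 and Dlx5 score and the 250 with the highest Pax6, Sox2 and Hes5 score, cortical spots left out. Sections were connected pieces of at least 100 spots. Where an area had fewer such pieces than sections, the largest piece was split by k-means clustering of the spot positions. The axis by steps, the test of the replicate number and the choice of spots with at least 10000 UMIs were added after the data had been seen. Gene positions came from GENCODE M21 (GRCm38) by identifier. A few genes that these rules or lists name are not reported here.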

Additional observations from a re-analysis of the deposited data

Results flagged for a closer look

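Stage differences in the cortical spots differed from those in all other spots for 186 genes by edgeR's test of the interaction of stage and region. The genes named by the rule were Glra2 (1.69 on the log2 scale), Lmo3 (1.60), Phactr3 (1.25), Draxin (1.17) and Mapk10 (1.22), whose stage difference was the higher one in cortical spots, and Krt10 (-2.38), Acta2 (-2.76), Krt15 (-2.20), Des (-2.79) and Rax (-5.04), whose difference was the lower one. The direction of the first 5 came with lower levels in the other spots at E15.5 while the cortical level held. Against the GABAergic spots the differences of 2 genes passed, Sulf1 (2.93) and Fgf15 (-3.20). Each stage had 2 areas, too few for a check of outlying areas.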

How the results depend on the processing

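The stage difference in cortical spots called 0 genes in the reported fit and 0 without TMM, with at least 10 counts in every area, at 0.05, against a log2 fold change of 1, with sums thinned to the smallest, with 400 spots, with at least 5000 UMIs per spot, with thinned scores, with 50 spots in each area, with 2 member neighbours, with at least 10000 UMIs and with the mean of spot CPM. It called 1 gene with DESeq2 and 1 with 150 spots (Fgf15 in both), 36 with no filter beyond 1 count (2 higher, 34 lower), 8 with sections as samples, and 0 to 4 when an area was left out. With the replicate number as a replicate block it called 2 genes, Fgf15 and Matn1. Same-numbered areas shared the number, the Space Ranger version and the area layout (correlation of the deviations of the replicate 1 areas 0.099, 2 pairs). The planned limma-voom model, with a random effect of area over 5 sections, could not be fitted and was not run. Matn1 reversed to 0.93 with 400 spots and 0.65 with 50 spots in each area, and Cnmd to 0.94 and 0.78. Against all other spots the 186 genes became 31 without TMM, 9 with 400 spots, 105 with DESeq2, 0 against radial glia spots in edgeR (246 at an unadjusted p under 0.05), where Phactr3 reversed to -0.17, and 222 to 1270 when an area was left out; against GABAergic spots the 2 genes became 3 to 34. The fit against radial glia spots used all 250 of them, 194 of which had been set apart as retina, so it is no comparison with cortical progenitors alone. The replicate number called 51 genes, 81 with at least 10000 UMIs and 124 without TMM. Where an area was left out, the lone area of its stage was assumed to vary like the others. The cause of these changes was not tested. Of 160 list levels 154 stayed within the spread between areas when spots were weighted equally. Depth limits E15.5 replicates 2 to 4, where 0 UMIs allow up to 6.3 CPM.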

Other observations

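The neighbours of cortical spots changed with the number of spots taken: 52.3% of neighbours were chosen spots with the 150 highest scores and 76.5% with the 400 highest. With 150 spots the areas held 40, 36, 64 and 10 of them.

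Among the 51 genes that differed by replicate number in the cortical spots were neuronal ones besides the crystallins. Nr2f1, an orphan nuclear receptor with a graded level along the cortex, had 237, 515, 167 and 434 CPM, and Syt4, a synaptotagmin, had 148, 348, 132 and 317. Rasgrf1, a calcium-dependent activator of Ras, had 64.7, 7.51, 68.4 and 10.5 CPM, and Rspo3, a secreted amplifier of WNT signalling, had 164, 49.4, 131 and 52.5. Ccnd1, a cyclin of G1 phase, had 63.6, 6.57, 15.3 and 4.2. In each of these 5 genes both areas of replicates 2 to 4 lay on the same side of both areas of replicate 1. These genes were picked after their values were seen.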
